A study of Mus musculus with 6 samples.

Results

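The antiviral interferon-stimulated effector genes are a set of 37 genes named by symbol, of which 34 were found in the table of estimated read counts, among 16775 genes in all. Mx1, Mx2 and Ifi44l were not analysed here. All 34 passed the filter on low counts, Oasl1 and Ifi44 through the controls only. The set was examined in osteoclasts, the multinucleated cells that resorb bone, with and without verapamil, a blocker of L-type calcium channels. Both groups were grown from bone marrow macrophages of WT mice with 30 ng/ml M-CSF and 50 ng/ml RANKL, the cytokines that drive osteoclast formation, and are titled day 5, while the protocol speaks of medium changes up to day 7. The labels give no dose or timing of verapamil, no vehicle, strain or animal age, and do not say whether libraries came from separate animals. P-values here therefore measure the spread between these libraries, which may be technical. The comparison used 3 verapamil libraries and control libraries 1 and 3, with 20202340 to 21494523 estimated reads each. Control 2 was not analysed here.

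Type I interferon binds the receptor pair IFNAR1 and IFNAR2, and the kinases JAK1 and TYK2 then pass the signal to transcription factors. STAT2 and IRF9 are parts of the ISGF3 complex, which binds interferon-stimulated response elements in promoters and switches on the effectors described here. In cells of the osteoclast lineage RANKL induces a low level of interferon beta, which is known to act back on the precursors and restrain osteoclast formation through loss of c-Fos protein.

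The effectors were lower with verapamil in most roles. In edgeR's quasi-likelihood test 26 of 34 were lower (Benjamini-Hochberg adjusted p under 0.05), beside 15.4% of 12619 genes tested. None was higher, beside 9.99% of all genes tested. The counts of lower members include Oasl1 and Ifi44, which passed the filter on low counts through the controls only. At an unadjusted p under 0.05, 29 members were lower and 0 higher. The share of all genes at that threshold was not computed, so counts at it, here and by role or list below, have no background. DESeq2's Wald test called 28 members lower and 0 higher, beside 1816 genes lower and 1588 higher of 16595 fitted. Of the members called lower 21 fell at least 2-fold and 16 at least 4-fold. Genes both called and lower by as much made up 10.7% and 2.95% of all tested genes. The median log2 fold change of the 34 members was -1.90, beside -0.01 over all tested genes. The libraries of the groups did not overlap in 30 members, all lower with verapamil, beside 29.0% of all genes lower and 27.7% higher without overlap. The remaining 4 were Herc6, Ifih1, Eif2ak2 and Dtx3l. Under upper quartile scaling the median of all genes moved to -0.13, the share of higher genes among all calls from 39.4% to 28.2%, and 29 members were lower.

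**Figure D1:**
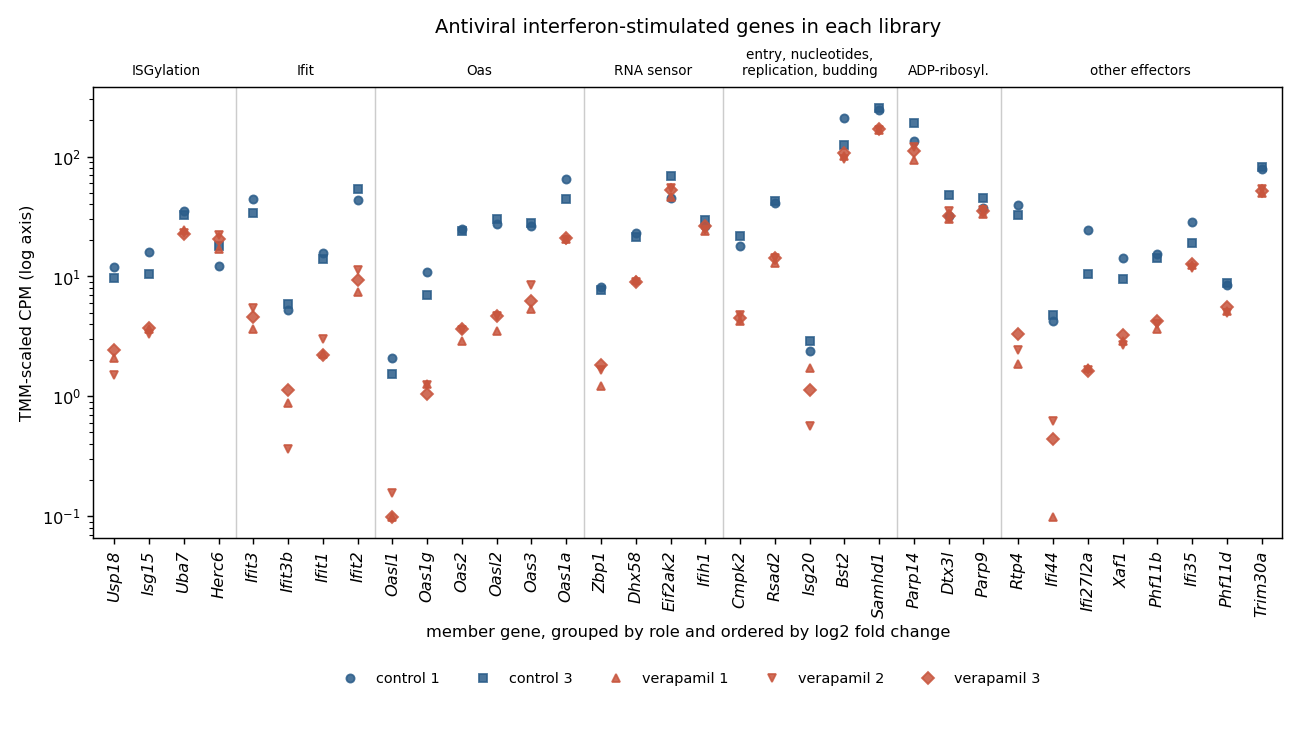
Each point is 1 library's TMM-scaled CPM (scaled read counts, log axis) for 1 of the 34 members, with blue for controls 1 and 3 and red for verapamil 1 to 3, grouped by role. The red points lie below both blue points for all members but Herc6, Ifih1, Eif2ak2 and Dtx3l.

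Levels below are CPM, read counts scaled to library size by TMM, in controls 1 and 3 and then in verapamil 1, 2 and 3. Fold changes are log2 values of verapamil over control, with the standard error (SE) of the edgeR fit. In bulk RNA, fewer cells of a type and less RNA per cell cannot be told apart.

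The letters of the interferon-stimulated response element, GAAANNGAAA on either strand, were searched in RefSeq promoter windows of GRCm38 that run from 250 bases before to 50 bases after each start. Of the 26 members with a window, 13 held a match, beside 3.92% of 10070 tested genes and 3.44% of all 32851 windows. A match is a description of letters, not a measured binding site. Matches occurred in 10 of 20 members that were lower and in 3 of 6 that did not pass the test (Ifih1, Eif2ak2 and Bst2). Stretches of 6 members, 1 for each role with a match, show how the repeats are placed, and capitals mark the matches. The stretches run over the 200 bases before the start, except for Eif2ak2, whose match lies after it, at position 19 of the transcript.
Isg15, chr4:156200819-156201018, minus strand: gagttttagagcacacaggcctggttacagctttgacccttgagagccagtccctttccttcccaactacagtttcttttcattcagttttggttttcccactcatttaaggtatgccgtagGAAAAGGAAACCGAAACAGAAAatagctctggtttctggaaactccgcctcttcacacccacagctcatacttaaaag
Ifit3, chr19:34583329-34583528, plus strand: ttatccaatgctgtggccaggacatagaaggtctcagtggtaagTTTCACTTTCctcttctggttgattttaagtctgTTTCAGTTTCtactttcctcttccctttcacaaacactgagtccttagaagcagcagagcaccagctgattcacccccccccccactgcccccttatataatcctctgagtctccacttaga
Oas1g, chr5:120887614-120887813, minus strand: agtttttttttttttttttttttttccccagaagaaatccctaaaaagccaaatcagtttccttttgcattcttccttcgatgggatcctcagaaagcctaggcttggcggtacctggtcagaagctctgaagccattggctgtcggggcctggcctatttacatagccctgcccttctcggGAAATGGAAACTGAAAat
Rsad2, chr12:26456453-26456652, minus strand: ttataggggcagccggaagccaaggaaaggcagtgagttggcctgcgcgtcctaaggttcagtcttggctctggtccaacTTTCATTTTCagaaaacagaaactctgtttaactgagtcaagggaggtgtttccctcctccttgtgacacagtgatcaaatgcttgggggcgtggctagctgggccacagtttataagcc
Trim30a, chr7:104465194-104465393, minus strand: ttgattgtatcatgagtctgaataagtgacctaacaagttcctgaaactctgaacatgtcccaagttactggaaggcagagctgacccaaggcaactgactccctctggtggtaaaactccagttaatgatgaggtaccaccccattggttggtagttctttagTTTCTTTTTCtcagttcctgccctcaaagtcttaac
Eif2ak2, chr17:78882537-78882562, minus strand: tccgccggGAAAACGAAAcagaagag

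In Isg15, 3 overlapping matches began 78, 72 and 66 bases before the start, and in Oas1g 2 overlapping matches began 18 and 12 bases before it. Oas1a held such a pair at 20 and 14 bases, and Bst2 one at 130 and 124 bases. The matches of Ifit3 (156 and 122 bases before the start) and of its copy Ifit3b (188 and 154) lay on the opposite strand and were separate. Bst2 and Eif2ak2 did not pass the test although their windows held the letters, while Ifi44, Oasl1 and Oasl2 fell and had no match of these letters in the window.

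ISG15 is a ubiquitin-like protein that is attached to other proteins by the activating enzyme UBA7, the conjugating enzyme UBE2L6 and, in mice, the ligase HERC6, and is removed by USP18, which also blocks signalling at IFNAR2. The modifier, its protease and the activating enzyme fell, and the ligase gene did not pass the test. Isg15 was at 16.1 and 10.5 CPM in controls and at 3.64, 3.31 and 3.70 CPM with verapamil (edgeR log2 fold change -1.91, SE 0.211, adjusted p = 0.0021). Usp18 had 12.0 and 9.69 CPM against 2.07, 1.5 and 2.42 CPM (log2 -2.43, SE 0.223, adjusted p = 0.0012). In both genes every verapamil library was well below both controls. Uba7 fell by less, from 35.1 and 32.4 CPM to 24.2, 22.9 and 22.5 CPM (log2 -0.54, SE 0.106, adjusted p = 0.0143). Without verapamil 1, 2 or 3 its adjusted p was 0.0636, 0.0867 or 0.0943. Herc6 had 12.2 and 17.9 CPM in controls and 17.1, 22.1 and 20.6 CPM with verapamil, so the groups overlapped. Its log2 fold change was 0.40 (95% interval -0.09 to 0.89, adjusted p = 0.188). It was 0.71 against control 1 alone (adjusted p = 0.00346), a fit that holds no spread between controls, and 0.15 against control 3 alone. Of the exon bases of Herc6 13.7% lie in the transcript Gm45193 on the same strand. Ube2l6, the conjugating enzyme, was at 42.6 and 37.1 CPM and fell to 21.1, 19.9 and 20.5 CPM (log2 -0.96, SE 0.112, adjusted p = 0.00244).

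IFIT proteins bind foreign RNA ends and block translation of viral RNA. Their 4 genes lie close together on chromosome 19, from Ifit2 (start 34550550) to Ifit1 (end 34650009), and all fell (median log2 -2.68). Ifit2, the member with the highest CPM, was at 43.6 and 53.5 CPM in controls and at 7.43, 11.4 and 9.32 CPM with the drug (log2 -2.37, SE 0.196, adjusted p = 0.000884). Ifit3 had 44.3 and 33.7 CPM against 3.64, 5.47 and 4.63 CPM (log2 -3.09, SE 0.204, adjusted p = 0.000543). Ifit3b had 5.21 and 5.85 CPM against 0.885, 0.362 and 1.13 CPM (log2 -2.78, SE 0.364, adjusted p = 0.00359), from 253 reads in the controls and 48 with verapamil, and Ifit1 changed by -2.57 (adjusted p = 0.000584). The means of the verapamil libraries were 11.7% to 19.4% of the control mean in the 4 genes. Ifit3 and Ifit3b are near-identical copies: 51.2% of the 50-base stretches of the Ifit3 transcript also occur in Ifit3b, so the division of reads between them is uncertain. Their sum does not depend on that division. It was 49.5 and 39.5 CPM in controls and 4.53, 5.84 and 5.77 CPM with verapamil, which is 12.1% of the control mean.

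The 2'-5' oligoadenylate synthetases (OAS) make short oligoadenylates as a second messenger when they meet double-stranded RNA, and the OAS-like proteins are their relatives. All 6 genes were lower (median log2 -2.79). Oas1a, the most abundant, had 65.4 and 44.1 CPM in controls and 20.6, 20.3 and 20.8 CPM after verapamil (log2 -1.41, SE 0.176, adjusted p = 0.00308). Oas1g had 10.9 and 7.00 CPM against 1.28, 1.24 and 1.04 CPM (log2 -2.91, SE 0.253, adjusted p = 0.00105). Transcripts of the pair share much sequence, with 57.6% of the 50-base stretches of Oas1a found in Oas1g. Summed, they were at 76.3 and 51.1 CPM in controls and 21.8, 21.6 and 21.8 CPM with verapamil, 34.2% of the control mean. Oasl1 showed the lowest fold change of all members (log2 -3.88, SE 0.378, adjusted p = 0.00139), but rested on few reads: 46 and 36 in the controls and 2, 3 and 2 with verapamil. It passed the filter on low counts through the controls only. Oas2, Oasl2 and Oas3 changed by -2.85, -2.73 and -2.02 (adjusted p = 0.000437, 0.000437 and 0.00133). Oas1a, Oas1g, Oas2 and Oas3 lie together on chromosome 5 between 120730333 and 120907544, and Oasl1 and Oasl2 together between 114896926 and 114937911 of that chromosome.

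Among the RNA and nucleic acid sensors the genes split, 2 of 4 lower (median log2 -0.72). Zbp1, a sensor of Z-form nucleic acid that triggers cell death, was at 8.18 and 7.64 CPM in controls and 1.23, 1.65 and 1.82 CPM after verapamil (log2 -2.33, SE 0.201, adjusted p = 0.00102). Dhx58, which encodes LGP2, a regulator of the sensors RIG-I and MDA5, had 23.1 and 21.2 CPM against 9.39, 8.99 and 8.97 CPM (log2 -1.28, SE 0.11, adjusted p = 0.00102). Both were lower in every verapamil library. Ifih1, the gene of MDA5, had 26.2 and 29.5 CPM in controls and 24.1, 24.2 and 26.2 CPM with verapamil, and the groups overlapped (log2 -0.16, 95% interval -0.44 to 0.11, adjusted p = 0.314). Eif2ak2, the gene of the double-stranded RNA kinase PKR, had 45.2 and 69.2 CPM against 45.9, 54.2 and 52.5 CPM (log2 -0.17, 95% interval -0.64 to 0.30, adjusted p = 0.538). All verapamil libraries lay between the controls, and the estimate was 0.17 against control 1 alone and -0.44 against control 3 alone (adjusted p = 0.207 and 0.011). Ddx58, the gene of RIG-I, which is no member of the set, fell from 55.4 and 72.5 CPM to 32.6, 40.2 and 39.1 CPM (log2 -0.78, SE 0.159, adjusted p = 0.0166). It did not pass without verapamil 1, 2 or 3 (adjusted p = 0.0711, 0.0523 and 0.0647).

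**Figure D2:**
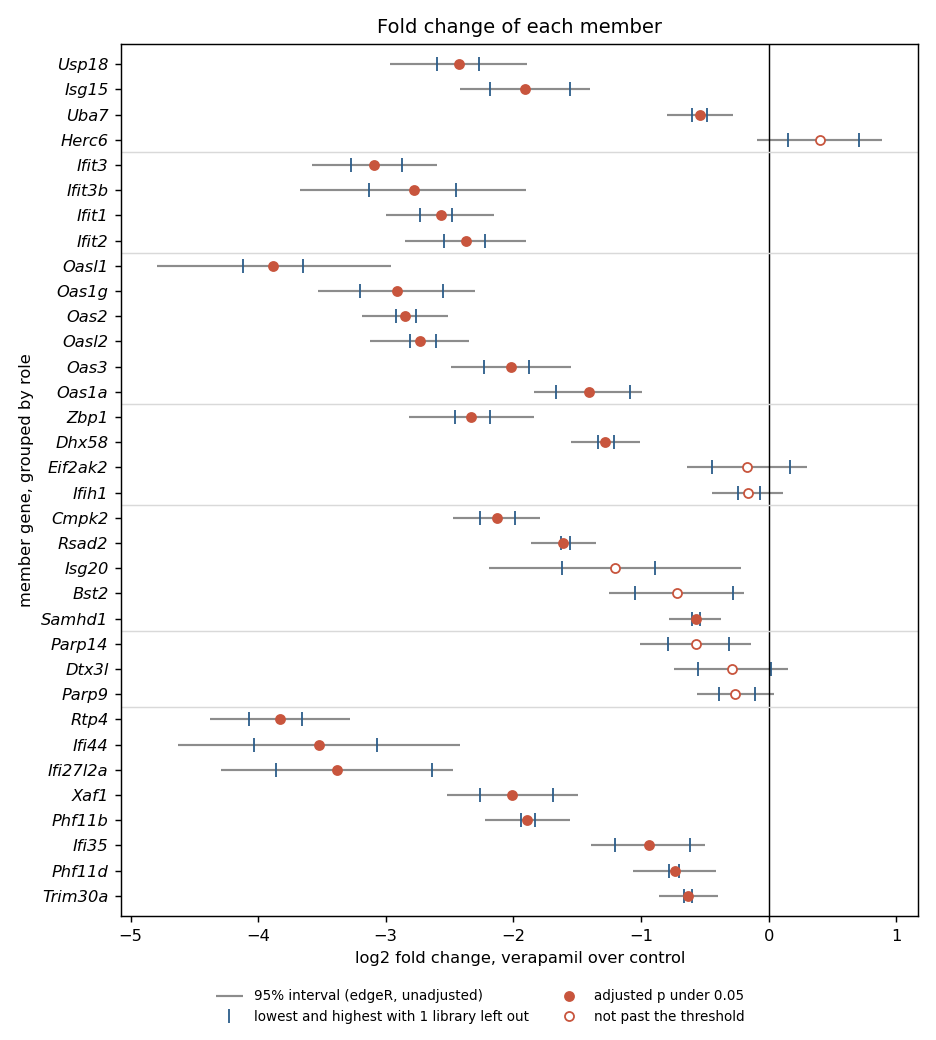
Points give the log2 fold change of verapamil over control for each member (filled: adjusted p under 0.05), grey lines the unadjusted 95% interval and blue ticks the lowest and highest value with 1 library left out. Members of the Ifit and Oas groups lie from -3.88 to -1.41, while Herc6, Ifih1, Eif2ak2, Parp9 and Dtx3l have intervals that include 0.

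Of 5 effectors analysed that act on virus entry, nucleotides, replication or budding 3 were lower, 5 at an unadjusted p under 0.05 and 4 by DESeq2 (median log2 -1.20). Rsad2, the gene of viperin, and Cmpk2, a nucleotide kinase, are neighbours on chromosome 12, and viperin makes a chain-terminating nucleotide from CTP. Rsad2 was at 41.3 and 42.8 CPM in controls and 13, 14.2 and 14.2 CPM with the drug (log2 -1.61, SE 0.105, adjusted p = 0.000543). Cmpk2 had 17.9 and 21.7 CPM against 4.28, 4.75 and 4.53 CPM (log2 -2.13, SE 0.14, adjusted p = 0.000543). In both genes the groups were far apart beside the spread within each. Samhd1, which degrades deoxynucleotides and had the highest CPM of the set, went from 245 and 255 CPM to 166, 166 and 171 CPM (log2 -0.57, SE 0.0865, adjusted p = 0.00578). Bst2, the gene of the virus tether tetherin, had 211 and 124 CPM in controls and 101, 94.9 and 108 CPM with verapamil. The groups did not overlap, but the controls differed 1.70-fold and the gene was not called (log2 -0.72, SE 0.218, adjusted p = 0.057). Against control 1 alone the log2 fold change was -1.05 and against control 3 alone -0.28 (adjusted p = 1.67e-05 and 0.0349), and removing the trend with transcript length gave -0.32. Isg20, an RNA exonuclease, was low, at 2.38 and 2.90 CPM against 1.72, 0.568 and 1.13 CPM (log2 -1.20, SE 0.407, adjusted p = 0.0775), and rested on 121 reads in the controls and 69 with verapamil.

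The ADP-ribosylation genes lie together on chromosome 16, between 35831892 (Parp14) and 35972621 (Parp9), and 0 of 3 were called by edgeR, 1 was lower at an unadjusted p under 0.05 and 1 by DESeq2 (median log2 -0.29). Parp14, a mono-ADP-ribosyltransferase, had 135 and 189 CPM in controls and 93.0, 121 and 111 CPM after verapamil (log2 -0.57, SE 0.18, adjusted p = 0.063). Its log2 fold change was -0.31 against control 1 alone and -0.79 against control 3 alone. Parp9 and the ubiquitin ligase Dtx3l form a complex. Parp9 was at 37.4 and 45.5 CPM against 33.2, 35.5 and 35.3 CPM (log2 -0.26, 95% interval -0.56 to 0.04, adjusted p = 0.173). Dtx3l was at 32 and 47.5 CPM against 30.2, 35.0 and 32.1 CPM (log2 -0.29, 95% interval -0.74 to 0.15, adjusted p = 0.271), and its estimate was 0.02 against control 1 alone and -0.55 against control 3 alone (adjusted p = 0.888 and 0.0034). Control 1 was the lower control in all 3 genes, with 0.714 of control 3 as the median. The transcripts of Parp9 and Dtx3l run on opposite strands and share 9.4% and 8.0% of their exon bases, and counting by strand is not stated.

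All 8 other effectors analysed were lower (median log2 -1.95). Rtp4, a transporter of membrane receptors, had 39.8 and 32.6 CPM in controls and 1.87, 2.43 and 3.30 CPM with the drug (log2 -3.83, SE 0.228, adjusted p = 0.000437). Its exons share 13.9% of bases with the transcript Gm45338 on its own strand. Ifi44 had 4.22 and 4.74 CPM against 0.0984, 0.62 and 0.444 CPM (log2 -3.52, SE 0.456, adjusted p = 0.00344), from 94 and 111 reads in the controls and 2, 12 and 9 with verapamil. It passed the filter on low counts through the controls only. Ifi27l2a, of the ISG12 family, had a log2 fold change of -3.38 (SE 0.376, adjusted p = 0.00214). Its controls stood at 24.4 and 10.5 CPM and its verapamil libraries at 1.72, 1.65 and 1.63 CPM, and the log2 fold change was -2.64 without control 1. The largest level in this group was that of Trim30a, a RING finger protein gene, with 78.0 and 81.4 CPM in controls and 49.8, 53.5 and 51.4 CPM after verapamil (log2 -0.63, SE 0.0943, adjusted p = 0.00576). Xaf1, an antagonist of the apoptosis inhibitor XIAP, and Phf11b, a PHD finger gene, changed by -2.01 and -1.89 (adjusted p = 0.00182 and 0.000649). Reads of Phf11b are uncertain, since 47.0% of its 50-base stretches occur in other genes, and 26.0% in Phf11a. Ifi35, an interferon-induced leucine zipper protein gene, and Phf11d changed by -0.94 and -0.73 (adjusted p = 0.0143 and 0.0115), and neither passed without verapamil 1, 2 or 3 (adjusted p = 0.0554 to 0.0661).

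**Figure D3:**
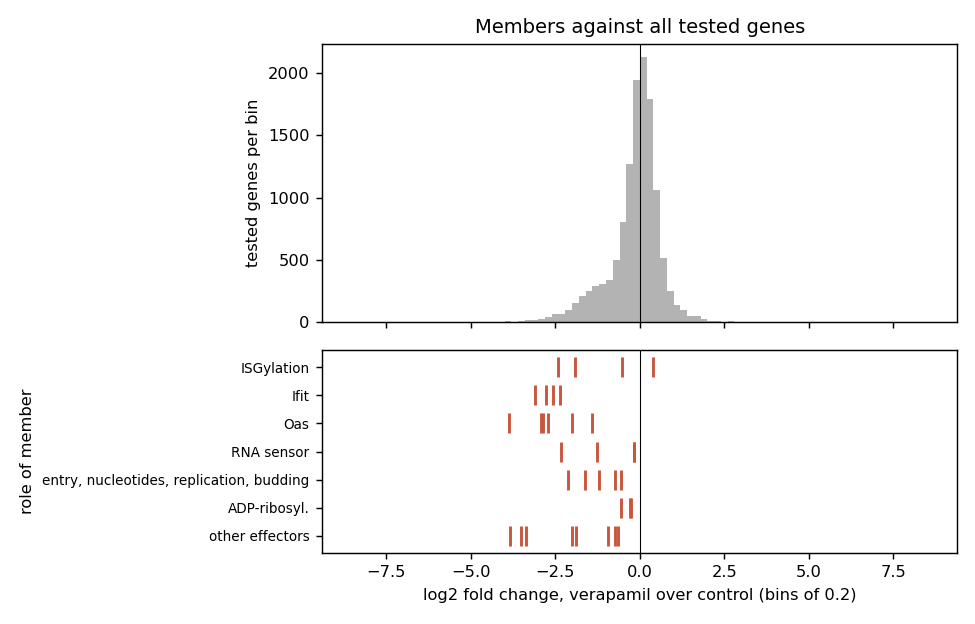
The upper panel counts the 12619 tested genes by log2 fold change of verapamil over control, in bins of 0.2, and the lower panel marks each member by role. Tested genes centre near 0, with a median of -0.01, while members reach from -3.88 to 0.40.

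The 2 controls differed in single members but not in one direction. Control 1 was the higher control in 17 of 34 members, with a median ratio to control 3 of 1.01, beside 43.4% of all tested genes and a median ratio of 0.947. The ratio was highest for Ifi27l2a (2.33) and lowest for Eif2ak2 (0.653). Among the members the median coefficient of variation was 13.9% between controls and 9.2% between verapamil libraries, against 16.8% and 6.75% over all tested genes.

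Per kilobase of exon, the scale on which levels of different genes can be compared, Bst2 was the most abundant member in both groups, at 185 CPM per kb in controls and 112 with verapamil. Ifi27l2a had a control mean of 37.6 CPM per kb and was at 3.61 with verapamil. Its place is set by control 1, since it stood at 52.6 in control 1 and at 22.6 in control 3, there below Samhd1 (27.9) and Oas1a (23.4). The control means of Oas1a, Samhd1 and Ifit3 were 29.0, 27.3 and 22.3 CPM per kb, and they stood at 10.9, 18.4 and 2.62 CPM per kb with verapamil. Oasl1 had the lowest mean of the members in both groups, at 0.69 and 0.0449 CPM per kb. In control 1, however, Ifi44 was lower (0.689 against 0.793 for Oasl1). These levels use all annotated exon bases of a gene, which understates genes with long rarely used exons.

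Genes upstream of the effectors were given by lists. Interferon genes themselves had few reads: Ifnb1 had 0 reads in the controls and 1 in the verapamil libraries, and of 18 ligand genes listed 4 were in the table and 0 passed the filter on low counts. Of 8 receptor and kinase genes tested 1 was lower and 1 higher (median log2 0.21). Counts of called genes in this and the other lists changed with the control used. With 1 control left the fit holds no spread between controls and calls more genes of all kinds, so its counts are not given. Ifnar1 was at 130 and 181 CPM in controls and 121, 125 and 130 CPM with the drug (log2 -0.31, SE 0.15, adjusted p = 0.171), and Ifnar2 at 141 and 124 against 117, 112 and 116 CPM (log2 -0.21, SE 0.0993, adjusted p = 0.174). Jak1 was at 205 and 311 CPM against 333, 350 and 347 CPM and Tyk2 at 42.4 and 60.0 against 67.6, 64.9 and 61.2 CPM, all verapamil libraries above both controls. In Ifnar1 and Ifnar2 all verapamil libraries lay below both controls, in Ifnar1 by less than the printed digits show. Over all tested genes 27.7% were higher and 29.0% lower without overlap. Jak1 and Tyk2 had log2 fold changes of 0.41 and 0.34 (adjusted p = 0.14 and 0.176). The called pair was Ifngr1, a chain of the interferon gamma receptor (log2 -0.65, adjusted p = 0.00369), and Il10rb, a chain shared by the receptors of interleukin 10 and interferon lambda (log2 0.46, adjusted p = 0.0128). Il10rb did not pass without verapamil 1, 2 or 3 (adjusted p = 0.0813 to 0.092).

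Of 10 transcription factors 4 were lower and 0 higher by edgeR, also 0 higher at an unadjusted p under 0.05 and by DESeq2. Without verapamil 1, 2 or 3 the count of lower factors was 3. Irf7, the factor that amplifies interferon genes and is itself induced by interferon, had 34.4 and 27.5 CPM in controls and 4.87, 3.82 and 5.82 CPM after verapamil (log2 -2.68, SE 0.197, adjusted p = 0.000669). Irf9 fell from 37.1 and 38.5 CPM to 21.8, 22.7 and 22 CPM (log2 -0.77, SE 0.0993, adjusted p = 0.00342). Stat2 was at 33.3 and 45.7 CPM against 34.2, 35.2 and 33.5 CPM (log2 -0.20, SE 0.153, adjusted p = 0.35). Among 17 sensors and adaptors 2 were lower, Ddx58 and Sting1 (log2 -0.47, adjusted p = 0.0206), and 1 was higher, Tlr7, an endosomal receptor of single-stranded RNA (log2 0.88, adjusted p = 0.00969). At an unadjusted p under 0.05 in edgeR, 5 of the 17 were lower and 5 higher, and DESeq2 called 2 lower and 4 higher. No sensor or adaptor was lower without verapamil 1, 2 or 3, with Sting1 at adjusted p = 0.0781 to 0.126. Tlr7 missed the threshold without verapamil 1 (adjusted p = 0.0509). Its log2 fold change was 0.67 to 1.13 with 1 library left out. Mavs, the adaptor of the RIG-I-like receptors, had 49.6 and 58.8 CPM and 60.1, 58.0 and 55.9 CPM (log2 0.10, adjusted p = 0.545). Of the genes that restrain the pathway 4 of 13 were lower and 2 were higher, with Socs3 at -0.74 (adjusted p = 0.00569), Ptpn1 at 0.60 (adjusted p = 0.0329) and Pias4 at 0.58 (adjusted p = 0.0113) on the log2 scale. Without verapamil 1, 2 or 3 only 1 of these genes was lower and 0 were higher, with Ptpn1 at adjusted p = 0.102 to 0.125 and Pias4 at 0.0666 to 0.074. With 1 library left out the log2 fold change was 0.39 to 0.85 for Ptpn1 and 0.53 to 0.64 for Pias4.

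**Figure D4:**
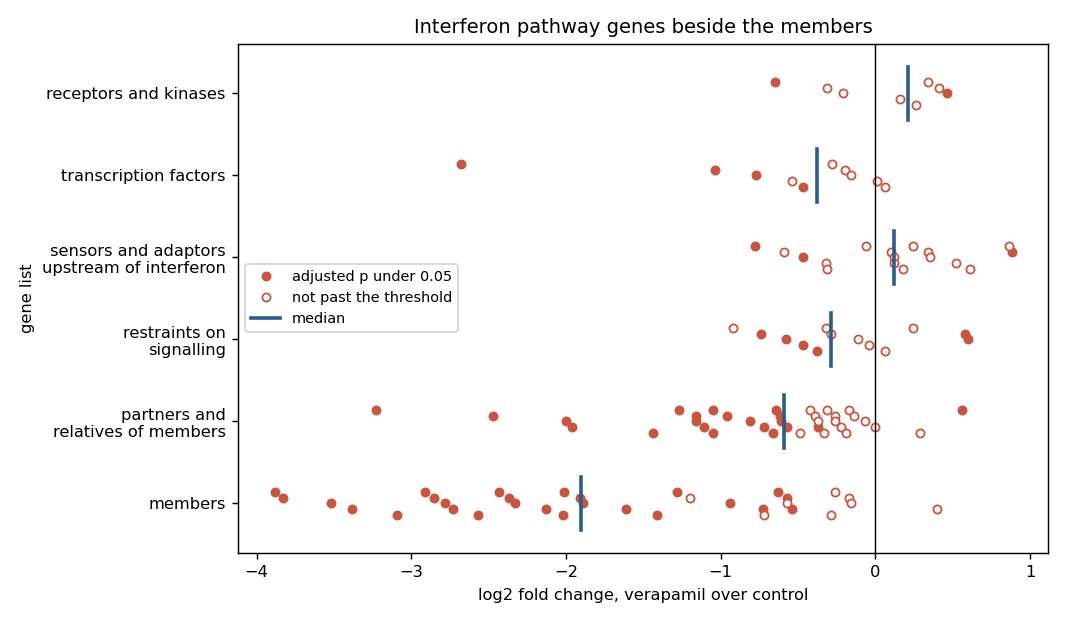
Each point is the log2 fold change of 1 gene, verapamil over control (filled: adjusted p under 0.05), and blue bars are the medians of the lists. Receptors and kinases have a median of 0.21 and transcription factors one of -0.38, beside -1.90 for the members.

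Among 36 tested partners and relatives of the members 20 were lower and 1 higher (median log2 -0.59), and 10, 12 and 11 were lower without verapamil 1, 2 and 3, with 0 higher in each. The relatives Ifit1bl1 and Phf11a had the lowest fold changes (log2 -3.23 and -2.47, adjusted p = 0.00074 and 0.0169), from 152 and 77 reads in the controls and 21 and 18 with verapamil. Both passed the filter on low counts through the controls only. Phf11a missed the threshold without verapamil 3 (adjusted p = 0.0527). Trex1, a DNA exonuclease, fell from 47.3 and 28.2 CPM to 9.84, 9.04 and 9.41 CPM (log2 -2.0, SE 0.221, adjusted p = 0.00208). Ifitm3, a membrane protein that blocks virus entry, fell from 447 and 266 CPM to 158, 133 and 153 CPM (log2 -1.27, SE 0.218, adjusted p = 0.00937).

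Markers of several cell types moved in the same comparison. The osteoclast markers were present, with a summed level of 7090 to 7780 CPM in controls and 3360 to 3510 CPM with verapamil, and 8 of 11 were lower and 1 higher. Macrophage markers summed to 8880 to 9930 CPM and 5940 to 6120 CPM (7 of 11 tested lower, 1 higher). Those of dendritic cells summed to 104 to 153 CPM and 15.7 to 17.4 CPM (7 of 7 tested lower, with Flt3 and Ccr7 at 1 read or fewer in each library). That list includes the MHC class II presentation genes H2-Aa, H2-Ab1, H2-Eb1, Cd74 and Ciita, whose part in the sum is not given here. Markers of stromal cells and osteoblasts summed to 1340 to 1530 CPM and 544 to 567 CPM (10 of 11 tested lower). The list of plasmacytoid dendritic cells, the professional interferon producers, includes the member Bst2 and Tlr7, and summed to 593 to 597 CPM and 646 to 651 CPM, with 1 of 8 tested lower and 1 higher. Its defining marker Siglech had 2 reads in the controls and 3 with verapamil. Of the T and NK cell list Cd4 held nearly all reads and the Cd3 genes were not analysed here, and the B cell and neutrophil lists summed to at most 5.00 and 8.49 CPM in any library. The part of these cells in the fall of the antiviral genes was not tested.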

How the data were processed

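The labels describe 6 RNA-seq libraries of mouse osteoclasts, 3 per group, made with a SMARTER mRNA kit from 1.3 ug of total RNA. The 5 value columns of the deposited table were used: all 3 verapamil libraries and controls 1 and 3. The authors deposited estimated counts of reads per gene, per the file headers. The submitters' processing notes name the builds GRCm38 and mm10, and the aligner, counter, annotation and strand use are unknown from the sources used here.

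The estimated counts were rounded. Under R 4.3.3 the package edgeR 4.0.16 applied its default filter (minimum count 10, minimum total 15) and TMM scaling to 12619 genes, and a quasi-likelihood model had the group as its only term (3 residual and 3.28 prior degrees of freedom, biological coefficient of variation 15.3%). P-values were adjusted by Benjamini-Hochberg over all tested genes, with a call at adjusted p under 0.05. The SE is the absolute log2 fold change over the square root of F, and 95% intervals are unadjusted. DESeq2 1.42.0 was an alternative. The fitting code was tested on simulated counts.

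The members, their roles and all gene lists were chosen with earlier results of these data known. Values per library were given for the member with the highest mean CPM of each role, the 2 called with the largest change and all members not called, and for a few others chosen after their values were seen. Of each pathway list the 3 called genes with the largest change and a fixed set were named, of which some are not reported here. Members were matched by symbol, and all 34 were found by Entrez identifier in RefSeq on GRCm38. Promoter windows came from RefSeq (GRCm38.p6). In 21 of 30 member windows the 25 bases after the start occurred in a GENCODE M21 transcript of the gene, and in 0 on the reverse strand. Exon lengths, overlaps and shared 50-base stretches came from GENCODE M21.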

Additional observations from a re-analysis of the deposited data

How the results depend on the processing

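Across 12 alternatives the direction and side of the threshold stayed the same in 379 of 407 fits of single members. Of the rest 16 passed only under the alternative, 10 lost their call (Uba7, Ifi35 and Phf11d) and 2 changed sign. The sign changes were Eif2ak2 (log2 0.17) and Dtx3l (0.02), both without control replicate 3, where neither passed the threshold. Without control replicate 1 they were at -0.44 and -0.55 and passed. The count of lower members was 23 to 32 when 1 library was left out and 25 to 29 otherwise. The count of higher members was 0 to 1 when 1 library was left out, the 1 being Herc6 without control replicate 3. The median of the members was -1.96 to -1.66 with 1 library left out and -1.57 with the transcript length trend removed. Over all genes 1460 (without verapamil replicate 3) to 7808 genes (without control replicate 3) were called, and 4533 without control replicate 1. With 1 control left, its spread is assumed to equal that of the verapamil libraries. The minimum count of 50 left Oasl1 untested.

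Replicate numbers 1 and 3 occur in both groups, and nothing says that they pair libraries. The deviations of same-numbered libraries correlated at 0.289 and 0.0224 across genes. Control 3 and verapamil 2, which share no number, also correlated at 0.289. Deviations from the group mean make controls 1 and 3 mirror each other, so these values cannot decide whether libraries are paired. With the replicate block 27 members were lower, with Bst2 and Parp14 added and Uba7 lost (adjusted p = 0.01, 0.00667 and 0.0592). That fit has 1 residual degree of freedom. Bst2 and Parp14 also passed with upper quartile scaling (adjusted p = 0.0443 and 0.022) and with DESeq2 (0.0149 and 0.0275). Depth limits Oasl1, Ifi44, Ifit3b, Isg20 and Oas1g, which had 7, 23, 48, 69 and 71 reads in the verapamil libraries together.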

Other observations

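Several antiviral restriction genes outside the set were chosen here after their values were seen, and they did not all move one way. Apobec3, a cytidine deaminase, was at 60.2 and 62.7 CPM in controls 1 and 3 and at 28.2, 28.1 and 29.2 CPM with the drug (log2 -1.11, edgeR adjusted p = 0.00105). Pml and Sp100, parts of the same nuclear bodies, changed by -0.72 and -0.57 (adjusted p = 0.00545 and 0.0149), Sp100 not passing without verapamil 1, 2 or 3 (adjusted p = 0.0699 to 0.0799), while Daxx, another protein of these bodies, had a log2 fold change of -0.07 (adjusted p = 0.628). Zc3hav1, the gene of the zinc finger antiviral protein, was the 1 relative called higher, with 95.4 and 124 CPM against 154, 168 and 163 CPM (log2 0.56, adjusted p = 0.0282). That call was not made without verapamil 1, 2 or 3 (adjusted p = 0.0899, 0.12 and 0.116). Ifitm1 fell (log2 -1.96, adjusted p = 0.0143, and 0.0605 and 0.053 without verapamil 1 and 2), whereas Ifitm2, which had 260 and 188 CPM against 162, 145 and 172 CPM, did not pass the test (log2 -0.49, adjusted p = 0.0696).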
